A study of Rattus norvegicus with 20 samples.

Results

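Rosiglitazone and resveratrol were compared directly with each other in retroperitoneal tissue of male ZDF rats. The comparison sets the 5 arrays of the rosiglitazone group against the 5 arrays of the resveratrol group, and each difference below is rosiglitazone minus resveratrol. These are 10 of the 20 whole-transcript arrays of the series, whose other arrays come from 5 obese rats, which received a stock diet over 6 weeks, and 5 lean control rats fed standard chow. All features with exactly 1 gene symbol entered, 14824 of 36685, and they held 14557 genes. The labels give the strain as Zucker and the rats as ZDF (Zucker diabetic fatty), a line whose obese animals carry the fa mutation of the leptin receptor and become diabetic. Each rat had its own cage and free access to food and water. The doses, the length of treatment, the diet of the treated rats and whether those rats were obese are given in none of the labels used here, so the 2 groups are compared as labelled and not at doses known to match. The arrays of a group are labelled as biological replicates.

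Retroperitoneal fat is a white depot behind the abdominal cavity that stores triglyceride. Rosiglitazone is a thiazolidinedione drug that activates PPARG, the nuclear receptor that drives adipocyte formation and the genes of lipid storage. PPARG binds DNA with a partner receptor, RXR, at repeats of the letters AGGTCA. In rodents, such drugs and cold can also turn on brown adipocyte genes in white fat, among them Ucp1, which lets mitochondria release energy as heat. Resveratrol is a plant polyphenol that has been proposed to act through the deacetylase SIRT1 and the energy sensor AMPK. Pparg and Sirt1 themselves were not analysed here.

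Levels are deposited log2 values, so a difference of 1 is a 2-fold difference. A gene was called where limma's adjusted p, taken over all 14557 genes, was under 0.05. The tissue label says retroperitoneal and no more. Adipocyte markers were present: adiponectin (Adipoq), the main secreted hormone of fat cells, lay at 10.91 ± 0.08 with rosiglitazone and 10.88 ± 0.54 with resveratrol (SD, n = 5 each), and the fatty acid carrier Fabp4 at 11.13 ± 0.14 and 11.10 ± 0.38. Array medians lay between 2.46 and 2.56.

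A pair of the 10 arrays stood apart from their groups. Resveratrol array 1 had a skeletal muscle score of 4.57, against -0.46 to -0.20 on the other resveratrol arrays, where the score of a list averages how far its members lie from their own 20-array means. Its milk protein score was 5.82, against -0.59 to 0.32. Its adipocyte score was -1.61, against 0.03 to 0.20. Rosiglitazone array 2 had the highest brown adipocyte score, 2.06 against 0.38 to 0.84 on the other rosiglitazone arrays, and the lowest macrophage score, -1.39 against -0.69 to 0.23. Its fibroblast and progenitor score was -1.36, against -0.33 to 0.03. Rosiglitazone array 1 had a red cell score of 3.39, against -0.35 to 0.65 on the others. The part of these signals in the results was not tested. Obese array 2 also stood apart, with a urothelial score of 4.42 against -0.42 to 0.01 on the other obese arrays and a macrophage score of -0.795 against 0.25 to 0.74. Counts and values are also given without resveratrol array 1 and rosiglitazone array 2, a setting chosen after the data were seen, where a count or a call differed in that setting.

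**Figure D1:**
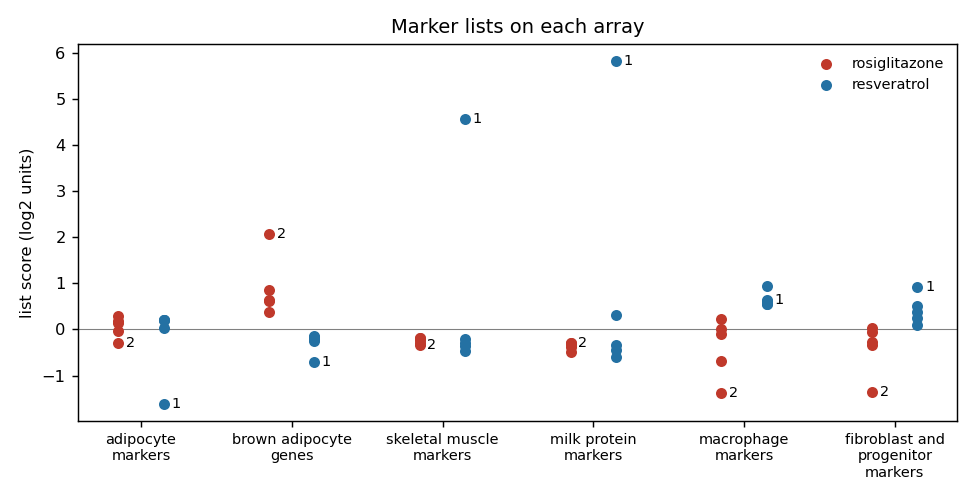
Scores of 6 marker lists on each array (y axis, mean log2 deviation of the members from their means over all 20 arrays), with 1 point for each of the 5 rosiglitazone and 5 resveratrol arrays and the numbers of the arrays that stand apart. Resveratrol array 1 lies at 4.57 for skeletal muscle and 5.82 for milk protein markers, and rosiglitazone array 2 at 2.06 for brown adipocyte genes.

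In the tissue of rosiglitazone rats, 17 of 19 genes of fatty acid oxidation, 22 of 28 of respiratory complex I and 6 of 10 of de novo lipogenesis were higher than in that of resveratrol rats. Lower were 4 of 9 genes of class II antigen presentation, 4 of 9 endothelial markers (1 was higher), 4 of 9 fibroblast and progenitor markers and 3 of 12 macrophage markers. Without resveratrol array 1 and rosiglitazone array 2 these counts were 17, 16 and 6 higher, and 4, 5, 2 and 1 lower. Of the 14557 genes, 1004 (6.9%) passed, 595 higher with rosiglitazone (4.09%) and 409 lower (2.81%). The count of lower genes was 239 without rosiglitazone array 4 and 259 without either resveratrol array 3 or 5. Of the 1004 genes, 360 differed at least 2-fold, 212 higher and 148 lower. The median difference over all genes was 0.03 (log2), and the median SE was 0.17. The 5 rosiglitazone arrays lay all above the 5 resveratrol arrays for 645 genes (4.43%) and all below them for 460 (3.16%), together 1105 genes (7.59%). Both conditions, a call and groups that do not overlap, held for 439 higher and 298 lower genes. Without resveratrol array 1 and rosiglitazone array 2, 683 genes passed, 399 higher and 284 lower.

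**Figure D2:**
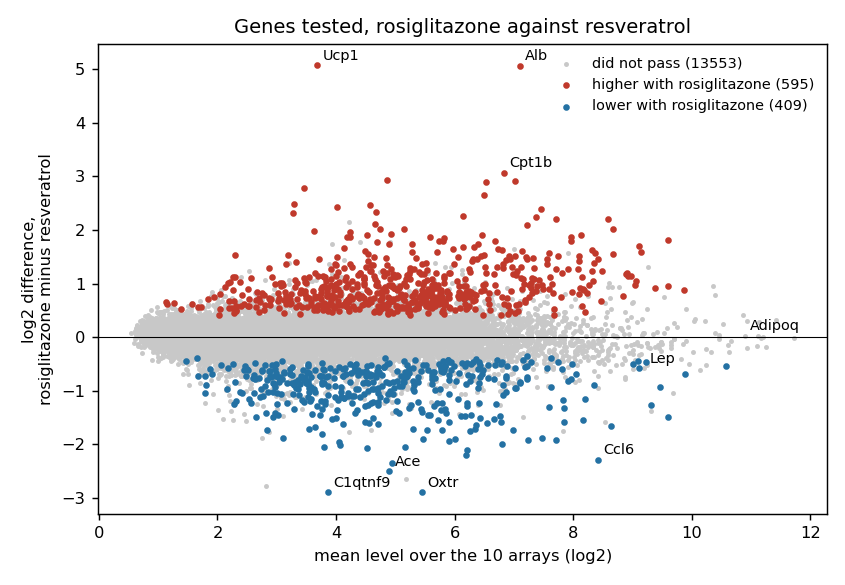
Difference (y axis, log2, rosiglitazone minus resveratrol) against mean level over the 10 arrays (x axis, log2) for the 14557 genes, with the 595 called higher in red, the 409 called lower in blue and the rest in grey. Ucp1 and Alb lie at the top with 5.07 each, C1qtnf9 and Oxtr at the bottom with -2.90 each, and Adipoq lies at 0.03.

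Among the genes higher with rosiglitazone, the largest difference was that of Ucp1, the uncoupling protein of brown fat. Its level was 5.83, 10.52, 4.82, 4.73 and 5.18 on rosiglitazone arrays 1 to 5 and 1.17, 1.09, 1.21, 0.95 and 1.31 on resveratrol arrays 1 to 5. Every rosiglitazone array was above every resveratrol array, and array 2 was far above the other four. The difference was 5.07 (SE 0.75, adjusted p = 0.000273), and 4.002 (adjusted p = 4.81e-06) without resveratrol array 1 and rosiglitazone array 2. No fold is given for Ucp1, because its resveratrol mean of 1.14 lay under the median gene level of 3.02, and the same holds for every gene named below with such a mean. Alb, the blood protein albumin, made chiefly by the liver, was 9.85, 9.44, 9.61, 10.25 and 9.0 with rosiglitazone and 5.52, 4.36, 3.96, 4.37 and 4.62 with resveratrol. These groups were far apart, with a difference of 5.07 (SE 0.69, adjusted p = 0.000154), 33.5-fold. Other liver markers did not share it: of the 7 measured, Alb was higher, the iron carrier Tf was lower, with a difference of -1.31 (adjusted p = 0.0048), and 5 did not pass, with a list median of -0.003.

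Cpt1b, the muscle and brown fat form of the enzyme that admits fatty acids to mitochondria, was 8.46, 9.82, 7.49, 8.11 and 7.93 with rosiglitazone and 3.82, 5.75, 5.53, 5.81 and 5.57 with resveratrol. All rosiglitazone arrays were above, and resveratrol array 1 was the lowest of all. The difference was 3.07 (SE 0.43, adjusted p = 0.000184), 8.37-fold. Fabp3, the heart-type fatty acid binding protein, was 8.80, 8.08, 7.99, 8.69 and 8.77 against 4.13, 6.38, 5.65, 5.65 and 5.99. It too was lowest on resveratrol array 1, and it differed by 2.91 (SE 0.43, adjusted p = 0.00029), 7.49-fold. Akr1c15, an aldo-keto reductase that reduces lipid-derived aldehydes, had the smallest adjusted p of these genes. Its levels were 8.11, 7.88, 8.24, 7.98 and 7.66 against 4.22, 5.03, 5.14, 5.56 and 5.47. The difference of 2.89 (SE 0.20, adjusted p = 2.34e-08) was large beside the spread within either group.

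Genes of other roles completed the 14 largest. Prg4 encodes lubricin, a lubricating glycoprotein of joints and serous surfaces, and was 7.71, 7.51, 7.71, 7.43 and 8.77 against 4.24, 5.40, 5.53, 5.18 and 5.50, a difference of 2.66 (SE 0.38, adjusted p = 0.000235). Array 5 was highest in the rosiglitazone group and array 1 lowest in the resveratrol group. Prg4 is also counted among mesothelial markers, of which it was the 1 that passed of 9 measured. Aadat, a mitochondrial aminotransferase of lysine and kynurenine breakdown, lay between 5.50 and 6.21 with rosiglitazone and between 1.74 and 4.17 with resveratrol, a difference of 2.47 (adjusted p = 7.47e-05). Elovl6, which lengthens newly made fatty acids, differed by 2.40 (adjusted p = 0.0103), and by 1.53 (adjusted p = 0.0166) without the arrays that stood apart, since it was 3.33 on resveratrol array 1 and 6.69 to 7.48 on the others of that group. Pnpla3, a lipid droplet hydrolase regulated by feeding, differed by 2.26, and Slc36a2, a proton-coupled amino acid transporter that marks brown fat in mice, by 2.34. Trim63, the ubiquitin ligase MuRF1 of muscle, differed by 2.49, with 2.69 to 6.59 on the rosiglitazone arrays against 1.76 to 2.22. The others were Vat1l at 2.79, Mmrn1, a secreted protein of platelets and vessel lining, at 2.43, and Ltbp2, a binding protein of elastic fibres, at 2.32.

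**Figure D3:**
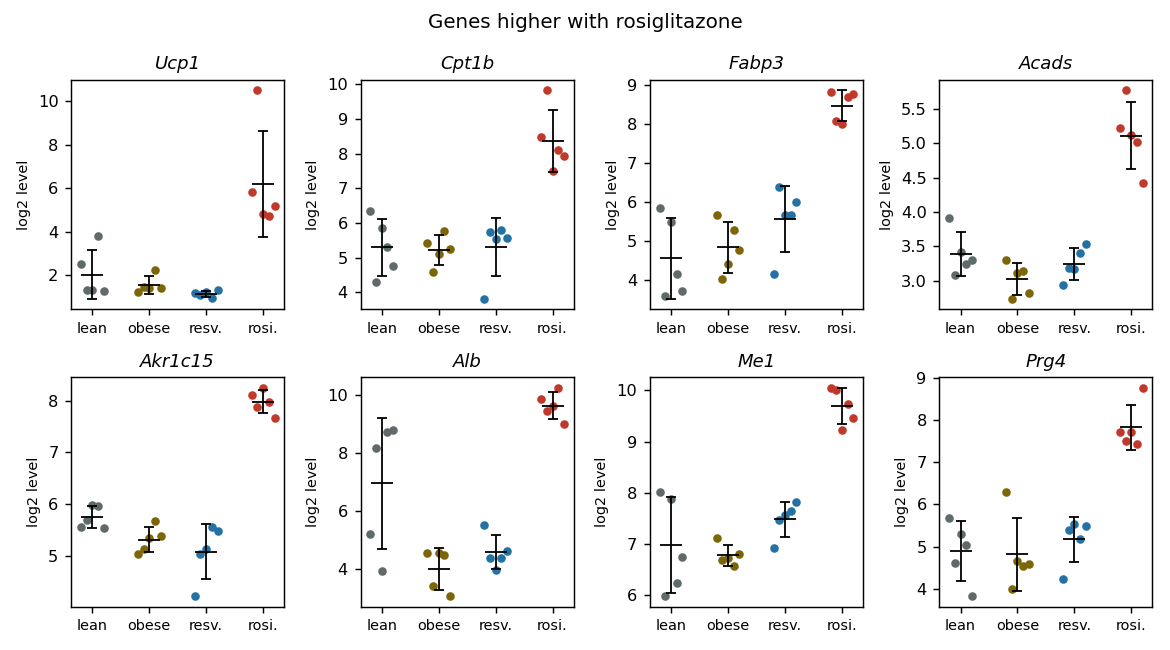
Levels (y axis, log2) of 8 genes on the 5 arrays of each of the 4 groups (x axis; resv., resveratrol; rosi., rosiglitazone), with points for arrays and bars for the mean and SD. For each gene all rosiglitazone arrays lie above all resveratrol arrays, and Ucp1 is at 10.52 on 1 rosiglitazone array and at 4.73 to 5.83 on the others.

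Promoters of the genes called higher were read for the AGGTCA letters that PPARG and RXR bind. RefSeq promoters (build GRCr8, 250 bases before to 50 after the start) were matched for 115 of the 146 genes that the naming rule took. AGGTCA, on either strand, was in 17% of 505 promoters of genes called higher, 12.7% of 338 of genes called lower, 13.5% of 11787 of genes tested and 15.7% of all 27457 in the table. The full repeat AGGTCANAGGTCA, which contains 2 copies of the shorter motif, was in 0 of the 505 and 0 of the 338. It was in 4 of the 11787 and in 16 of the 27457, too rare for the counts of 0 to say anything about the called genes. A match is a description of letters and not a binding site. Named genes called lower held the shorter motif too, among them Ccl6 and Emcn at 2 places each. Promoters of 3 higher genes that hold the shorter motif are given with the motif, on either strand, in capitals. Aadat lies on the minus strand at chr16:34555131-34555430, Uqcrq, a subunit of respiratory complex III, on the minus strand at chr10:38089929-38090228, and Slc27a1, the fatty acid transporter FATP1, on the plus strand at chr16:18312717-18313016.
Aadat: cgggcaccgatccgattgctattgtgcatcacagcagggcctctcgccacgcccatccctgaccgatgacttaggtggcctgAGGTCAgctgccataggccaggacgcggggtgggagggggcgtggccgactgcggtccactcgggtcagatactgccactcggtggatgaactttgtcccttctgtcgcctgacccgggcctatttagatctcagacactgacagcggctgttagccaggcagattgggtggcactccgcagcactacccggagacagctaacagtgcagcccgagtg
Uqcrq: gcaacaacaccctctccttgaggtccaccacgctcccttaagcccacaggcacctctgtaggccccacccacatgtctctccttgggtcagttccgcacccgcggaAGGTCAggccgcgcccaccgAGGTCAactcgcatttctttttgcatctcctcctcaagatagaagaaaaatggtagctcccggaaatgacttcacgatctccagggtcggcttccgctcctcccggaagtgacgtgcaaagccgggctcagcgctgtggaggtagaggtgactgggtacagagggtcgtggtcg
Slc27a1: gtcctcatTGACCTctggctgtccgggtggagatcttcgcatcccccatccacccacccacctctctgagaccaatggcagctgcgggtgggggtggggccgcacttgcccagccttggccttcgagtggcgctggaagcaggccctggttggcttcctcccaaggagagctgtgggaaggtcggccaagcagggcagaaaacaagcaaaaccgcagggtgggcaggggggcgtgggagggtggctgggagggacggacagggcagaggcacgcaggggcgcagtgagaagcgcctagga
Uqcrq holds the motif at 2 places and the others at 1. Uqcrq was 6.92, 7.86, 6.71, 7.08 and 6.58 with rosiglitazone and 5.38, 5.67, 5.43, 5.66 and 5.74 with resveratrol. The motif begins, counted from the gene's start, at -168 in Aadat, at -144 and -124 in Uqcrq and at -242 in Slc27a1.

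Among the genes lower with rosiglitazone, 2 shared the largest difference. C1qtnf9, an adiponectin-like secreted protein made by fat, was 2.66, 2.80, 2.41, 2.21 and 1.96 with rosiglitazone and 3.47, 5.95, 5.90, 5.62 and 5.58 with resveratrol. All rosiglitazone arrays were below, and resveratrol array 1 was the lowest of its group. The difference was -2.90 (SE 0.33, adjusted p = 2.06e-05). A second feature of C1qtnf9 differed by -0.46 and did not pass (adjusted p = 0.254), so the 2 features disagree. Oxtr, the oxytocin receptor, was 4.46, 2.80, 4.19, 4.66 and 3.93 against 5.16, 8.18, 6.96, 7.003 and 7.22. Its groups were apart, though resveratrol array 1 came close to the rosiglitazone arrays, and the difference was -2.90 (SE 0.55, adjusted p = 0.0027), 7.45-fold lower. Ace, the angiotensin-converting enzyme of vessel lining, was 3.51, 3.01, 4.43, 3.12 and 4.17 against 7.14, 5.78, 6.00, 5.86 and 5.97. It differed by -2.50 (SE 0.30, adjusted p = 4.63e-05), 5.66-fold lower.

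The other 11 are given next. Ccl6, a chemokine of myeloid cells, was 7.497, 6.88, 7.63, 6.73 and 7.58 with rosiglitazone against 9.62, 9.49, 9.54, 9.22 and 9.90 with resveratrol. The 2 groups were narrow and far apart, with a difference of -2.29 (SE 0.33, adjusted p = 0.000235), 4.89-fold lower. Ccr2, the receptor that brings monocytes into tissue, differed by -2.20 (adjusted p = 0.00933). Adgre4, an adhesion receptor of macrophages in mice, differed by -2.35, and Klra2, of the killer cell lectin-like receptor family, by -2.06. Gpr34, a lysophospholipid receptor of myeloid cells, differed by -2.01, Tmem176a by -1.99 and RT1-Da, a class II antigen-presenting chain, by -1.92. Ms4a12 differed by -1.95 and Evi2b, a membrane protein of blood cells, by -1.94. These last 2 did not pass without the arrays that stood apart (adjusted p = 0.0816 and 0.0549). Lum, the collagen-binding proteoglycan lumican, was 5.28, 4.15, 5.79, 5.09 and 5.50 against 8.14, 6.89, 7.34, 6.62 and 7.35, a difference of -2.11 (adjusted p = 0.00029). Igsf10, an immunoglobulin-domain protein, differed by -2.06.

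**Figure D4:**
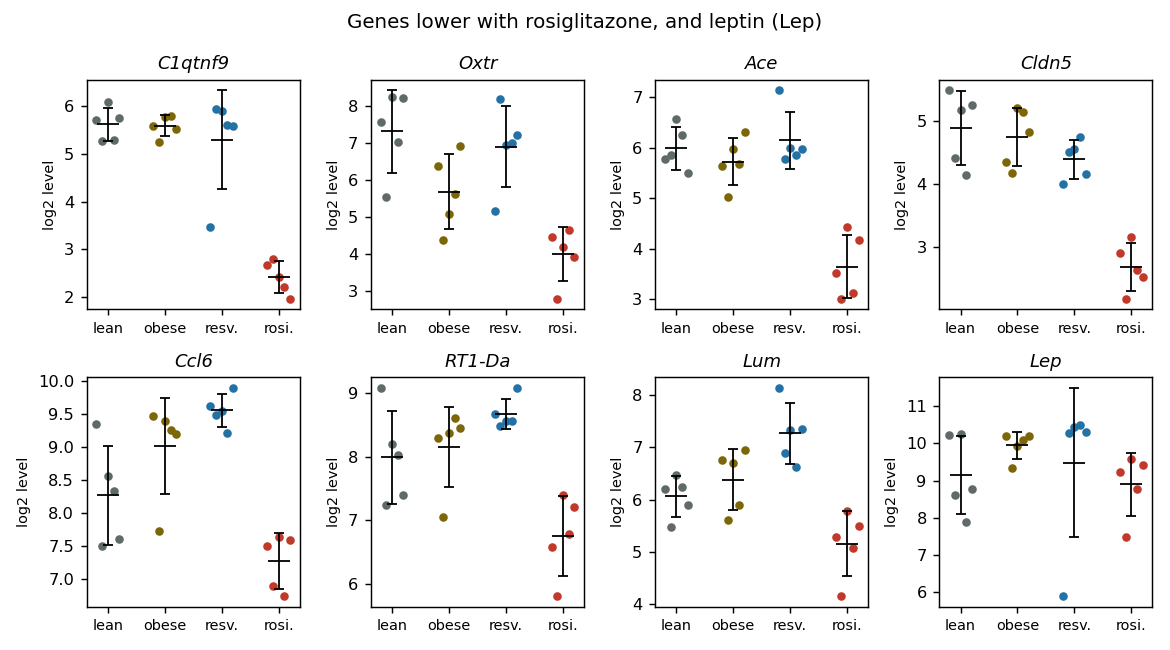
Levels (y axis, log2) of 8 genes on the 5 arrays of each of the 4 groups (x axis; resv., resveratrol; rosi., rosiglitazone), with points for arrays and bars for the mean and SD. The first 7 lie lower on all rosiglitazone than on all resveratrol arrays, while Lep is at 5.89 on 1 resveratrol array and at 10.29 to 10.50 on the others, so that its groups overlap.

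In the mitochondrial pathways described here, the members that passed were all higher with rosiglitazone, and their share ran from 17 of 19 in fatty acid oxidation to 8 of 12 in ATP synthase and 2 of 3 in ketone body use. The lists here and below were written with earlier results of these data known, so their counts describe the tissue and are read beside the 4.09% of all genes called higher and 2.81% called lower. Fatty acid oxidation, which breaks fatty acids down to acetyl-CoA, had 17 of 19 members higher and 0 lower, with a median difference of 1.55 against 0.03 over all genes. Without the arrays that stood apart the count was again 17, with a median of 1.18. Acadl, the long-chain acyl-CoA dehydrogenase, was 9.80, 10.69, 9.19, 9.64 and 9.13 against 7.18, 7.71, 7.70, 7.88 and 7.85, a difference of 2.03 (adjusted p = 1.32e-05). Every rosiglitazone array was above every resveratrol array, and rosiglitazone array 2 was the highest. Its short-chain relative Acads differed by 1.86 (adjusted p = 1.23e-05), from 3.25 ± 0.23 to 5.11 ± 0.48 (SD, n = 5), and the thiolase Acaa2, which cleaves off acetyl-CoA, by 1.70. Cpt1a, the liver form of the entry enzyme, differed by -0.67 and did not pass (adjusted p = 0.131), the opposite sign to Cpt1b, and is named here after its value was seen. In ketone body use, 2 of 3 members were higher, Acat1, the mitochondrial thiolase, by 1.90 and Bdh1, the hydroxybutyrate dehydrogenase, by 1.27, of which Bdh1 did not pass without the arrays that stood apart (adjusted p = 0.121).

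The tricarboxylic acid cycle, which oxidises acetyl-CoA, had 12 of 15 members higher and 0 lower, with a median of 1.38, and 10 without the arrays that stood apart, with a median of 1.03. Citrate synthase (Cs), its entry enzyme, was 8.88, 9.71, 8.37, 8.87 and 8.45 against 6.67, 7.35, 7.46, 7.65 and 7.58, a difference of 1.52 (adjusted p = 0.000552). No arrays of the groups overlapped. Idh3b, a subunit of isocitrate dehydrogenase, differed by 1.57 and Suclg1, a subunit of succinyl-CoA ligase, by 1.52. Around pyruvate, 6 of 8 members were higher, with a median of 1.39, and 4 without the arrays that stood apart. They hold both the pyruvate dehydrogenase subunit Pdhb, at 1.60, and a kinase that inhibits that enzyme, Pdk1, at 1.68. Pyruvate carboxylase (Pc), which supplies oxaloacetate, was 8.36, 8.39, 8.10, 8.67 and 7.84 against 5.66, 5.92, 6.13, 6.54 and 6.61. It differed by 2.10 (SE 0.22, adjusted p = 1.01e-05), and by 1.94 without the arrays that stood apart.

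In the respiratory chain, too, the members that passed were all higher. Of 28 complex I subunits, which take electrons from NADH, 22 were higher and 0 lower, all 28 differences were above 0, and the median was 0.998. Without the arrays that stood apart, 16 passed, with a median of 0.72. The complex I score was 0.72, 1.61, 0.41, 0.51 and 0.40 on the rosiglitazone arrays and -0.50, -0.19, -0.34, -0.05 and -0.11 on the resveratrol arrays. The groups did not overlap, and rosiglitazone array 2 was far the highest. Among the subunits, Ndufs7 differed by 1.51, Ndufa9 by 1.36 and Ndufb10 by 1.34. Complexes II to IV had 14 of 19 higher, with a median of 1.18, and 11 without the arrays that stood apart, with a median of 0.73. Cyc1, the cytochrome of complex III, differed by 1.65, Uqcrc1 by 1.64, Uqcrq by 1.45 and Sdha, the flavoprotein of complex II, by 1.38. ATP synthase had 8 of 12 higher, with a median of 0.86, and 6 without those arrays, with Atp5f1d at 1.27.

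Breakdown of the branched-chain amino acids leucine, isoleucine and valine had 13 of 17 enzymes higher and 0 lower, with a median of 0.77. Bckdhb and Bckdha, the subunits of the enzyme that commits these amino acids to breakdown, differed by 1.42 and 1.24, and Hibch, of valine breakdown, by 1.01. With the arrays that stood apart left out, 7 were higher, with a median of 0.58.

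**Figure D5:**
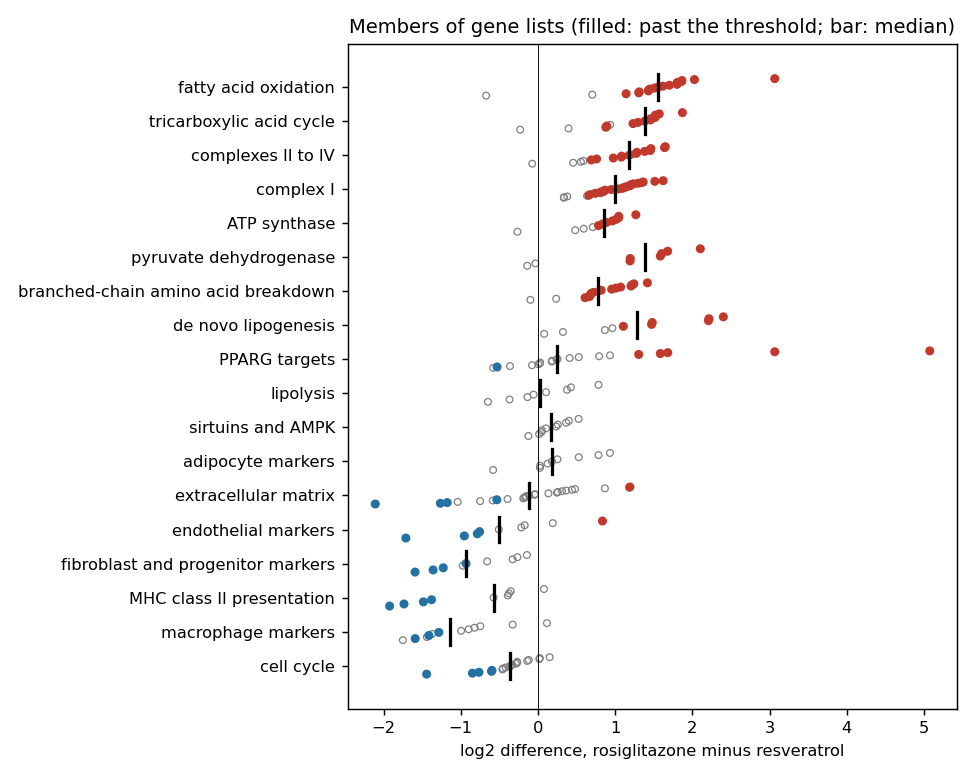
Differences (x axis, log2, rosiglitazone minus resveratrol) of the measured members of 18 gene lists (y axis), filled where past the threshold (red higher, blue lower), open where not, with a bar at the list median. The metabolic lists at the top lie mostly right of 0, with a median of 1.55 for fatty acid oxidation, and the cell lists at the bottom mostly left of it, with a median of -1.14 for macrophage markers.

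Regulators of mitochondrial content were mostly not called. Of 11 measured, 2 were higher. Ppara, the fatty acid sensor that drives oxidation genes, was 5.49, 8.18, 5.18, 5.39 and 4.28 against 3.10, 3.84, 3.60, 3.50 and 3.96. Its groups did not overlap, and rosiglitazone array 2 was again the highest. The difference was 2.11 (SE 0.48, adjusted p = 0.00896), and 1.36 (adjusted p = 0.0155) without the arrays that stood apart. Ppard, a related receptor, differed by 0.81 (adjusted p = 0.0174). Ppargc1a, the coactivator PGC-1 alpha, was 3.34, 6.69, 1.84, 2.25 and 2.57 against 2.79, 2.20, 1.81, 2.37 and 2.18. Its groups overlapped, and it did not pass (1.07, 95% interval -0.09 to 2.23, adjusted p = 0.309). The difference was 0.23 (adjusted p = 0.703) without rosiglitazone array 2 and 0.36 (adjusted p = 0.504) without both arrays that stood apart.

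Of 12 brown adipocyte genes, 4 were higher and 1 lower, with a median of 0.76. The higher ones were Ucp1, Cpt1b, Fabp3 and Cidea, a lipid droplet protein. Cidea was 10.49, 11.32, 10.23, 10.44 and 10.07 against 6.47, 9.58, 8.92, 9.17 and 9.30. Resveratrol array 1 stood low in it, and the difference of 1.82 (adjusted p = 0.0171) became 1.07 (adjusted p = 0.0614) without the arrays that stood apart. Tmem26, a marker proposed for beige adipocytes in mice, was lower, with a difference of -1.04 (adjusted p = 0.00874). Without those arrays 3 were higher and 1 lower, with a median of 0.28.

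In lipid synthesis, calls were more frequent in de novo lipogenesis than in triglyceride synthesis. De novo lipogenesis, which makes fatty acids from carbohydrate, had 6 of 10 members higher and 0 lower, with a median of 1.29, and 6 again without the arrays that stood apart. Me1, the malic enzyme that supplies NADPH, was 10.05, 10.004, 9.23, 9.73 and 9.47 against 6.92, 7.48, 7.56, 7.64 and 7.81, a difference of 2.21 (SE 0.30, adjusted p = 0.000172), 4.64-fold. The groups were far apart and each was narrow. Acly, which makes acetyl-CoA from citrate, was 9.49, 9.92, 7.75, 8.83 and 8.06 against 7.41, 6.07, 6.37, 6.62 and 6.54, a difference of 2.21 (adjusted p = 0.000235). Slc25a1, the citrate carrier of mitochondria, differed by 1.48 (adjusted p = 1.23e-05), and Tkt, the transketolase of the pentose phosphate pathway, by 1.47. Of 11 genes of glyceroneogenesis and triglyceride synthesis, 1 was higher, Pc, though 10 differences were above 0. The median of that list was 0.44, and 0.29 without the arrays that stood apart. Pck1, the enzyme that makes the glycerol backbone from pyruvate, differed by 0.18 and did not pass (SE 0.41, adjusted p = 0.88). Its sign turned to -0.56 (adjusted p = 0.372) without the arrays that stood apart.

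Lipolysis had 0 of 8 members called, with a median of 0.02. Pnpla2, the lipase that starts triglyceride breakdown, was 10.76, 10.93, 10.70, 10.73 and 10.79 against 8.57, 10.39, 10.18, 10.45 and 10.39. The groups did not overlap but the gene did not pass (0.78, adjusted p = 0.0645). Of 7 lipid droplet proteins, 1 was higher, Cidea, and 0 without the arrays that stood apart. Fatty acid uptake and binding had 3 of 14 higher, among them Fabp3 and Slc27a1, the latter by 1.68 (adjusted p = 0.000572). The median of that list, 0.22, turned to -0.06 without the arrays that stood apart, again with 3 higher. Cd36, the main fatty acid receptor of fat cells, was 10.72, 10.76, 10.45, 10.51 and 10.66 against 9.72, 10.97, 10.95, 10.92 and 10.93, and did not pass (-0.08, 95% interval -0.45 to 0.30, adjusted p = 0.882). Peroxisomal genes had 3 of 12 higher, with Ehhadh, of peroxisomal fatty acid oxidation, at 1.60 and Ech1, an isomerase of the same pathway, at 1.12, and 3 again without those arrays. Cholesterol synthesis had 0 of 11 called, with a median of 0.62 that became 0.26 without the arrays that stood apart.

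Genes known as PPARG targets did not move as 1 group. Of 20 measured, 5 were higher and 1 lower, with a median of 0.25 that became -0.04, with 5 higher and 0 lower, without the arrays that stood apart. The higher ones include Ucp1, Cpt1b, Slc27a1 and Slc2a4, the insulin-responsive glucose transporter GLUT4, which was 5.44, 5.75, 4.30, 4.73 and 4.40 against 3.11, 3.27, 3.998, 3.96 and 3.77. All its rosiglitazone arrays were above, with a difference of 1.30 (SE 0.25, adjusted p = 0.00293). Cbl, a ubiquitin ligase, was lower, with a difference of -0.53 (adjusted p = 0.035), and did not pass without those arrays (adjusted p = 0.189). The 5 higher without those arrays were not all the same genes, since the hormone Fgf21 passed only there (1.03, adjusted p = 0.0199). Adipoq and Fabp4, both classical targets, differed by 0.03 (95% interval -0.33 to 0.39) and 0.03 (95% interval -0.28 to 0.33) and did not pass. Their signs turned, to -0.19 and -0.18, without the arrays that stood apart.

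In glucose handling, insulin signalling had 1 of 15 members higher, Slc2a4, and glycolysis 2 of 8. Ldhb, the lactate dehydrogenase subunit of oxidative tissue, was higher by 1.58 (adjusted p = 0.000762) and Hk2, the insulin-regulated hexokinase, by 0.89 (adjusted p = 0.0161), the latter not without the arrays that stood apart (adjusted p = 0.0856). Sirtuins and AMPK subunits, the routes proposed for resveratrol, had 0 of 10 measured members called, with a median of 0.17. Sirt5, a mitochondrial sirtuin, was 5.49, 6.06, 5.64, 5.20 and 5.38 against 4.97, 5.03, 5.17, 5.12 and 4.86, and just missed the threshold (0.53, adjusted p = 0.0518). Prkaa1, a catalytic subunit of AMPK, differed by -0.12 (95% interval -0.49 to 0.24, adjusted p = 0.778). Of 17 antioxidant enzymes, 5 were higher and 0 lower, and 6, not all the same genes, without the arrays that stood apart. They include the mitochondrial peroxidase Prdx3 at 1.23 (adjusted p = 0.000351), the mitochondrial superoxide dismutase Sod2 at 1.13 and the cytosolic Sod1 at 0.90.

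Secreted products of fat cells held 2 lower and 0 higher of 17 measured adipokines. These were C1qtnf9 and Serpina12, the insulin-sensitising serpin vaspin, which differed by -0.72 (adjusted p = 0.0272). Without the 2 arrays 2 were again lower and 1 was higher, the hormone Fgf21 (1.03, adjusted p = 0.0199; 0.79, adjusted p = 0.0546, over all arrays), named here after its values were seen. Lep, the satiety hormone leptin, was 9.23, 7.49, 9.58, 8.79 and 9.43 with rosiglitazone and 5.89, 10.29, 10.43, 10.50 and 10.31 with resveratrol. Resveratrol array 1 was the lowest of all, and the other 4 resveratrol arrays lay above every rosiglitazone array. Over all arrays Lep did not pass (-0.58, SE 0.67, adjusted p = 0.716). Without resveratrol array 1 the difference was -1.48 (adjusted p = 0.039), and without rosiglitazone array 2 as well it was -1.13 (adjusted p = 0.0934). The 9 adipocyte markers, Lep among them, had 0 called and a median of 0.18.

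Of 12 macrophage markers measured, 3 were lower with rosiglitazone, 0 higher and 9 did not pass, and the median was -1.14. With resveratrol array 1 and rosiglitazone array 2 left out 1 was lower, with a median of -0.86. Leaving out any 1 of rosiglitazone arrays 2 and 4 and resveratrol arrays 1, 3, 4 and 5 also took this count to 1. In bulk tissue, fewer cells of a type and less RNA per cell cannot be told apart. Adgre1, the F4/80 antigen, was 3.64, 3.42, 3.33, 3.68 and 4.03 against 5.95, 4.66, 4.79, 4.79 and 4.96. Its groups did not overlap, and it differed by -1.41 (SE 0.24, adjusted p = 0.00132) and by -1.13 (adjusted p = 0.00504) without the arrays that stood apart. Cd68, a lysosomal protein of macrophages, differed by -1.59 (adjusted p = 0.0426) and the Fc receptor Fcgr1a by -1.28 (adjusted p = 0.0408), and neither passed without those arrays (adjusted p = 0.117 and 0.225). The macrophage score was -0.09, -1.39, 0.23, -0.69 and 0.02 on the rosiglitazone arrays and 0.65, 0.55, 0.61, 0.56 and 0.94 on the resveratrol arrays. The groups did not overlap, and the rosiglitazone arrays were the more spread.

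Class II antigen presentation had 4 of 9 members lower and 0 higher, with a median of -0.58, and 4 lower again without the arrays that stood apart. RT1-Da was 6.58, 5.80, 7.40, 6.78 and 7.21 against 8.67, 8.48, 8.56, 8.56 and 9.08, and differed by -1.92 (SE 0.33, adjusted p = 0.00134). Its groups were apart, with array 2 the lowest. RT1-Bb differed by -1.74 and Cd74, the invariant chain that guides class II molecules, by -1.48 (adjusted p = 0.00227). Of 12 lymphocyte markers 0 were called, and Cd4, which rat macrophages also carry, came nearest (-1.58, adjusted p = 0.0598). Of 19 chemokines and cytokines, Il33, an alarmin of stromal and endothelial nuclei, was lower (-1.42, adjusted p = 0.00372) and Ccl21, a chemokine of lymphatic vessels, was higher (1.98, adjusted p = 0.000154). Ccl2, a chemokine that draws monocytes, did not pass over all arrays (1.32, adjusted p = 0.152) and was higher without the arrays that stood apart (2.25, adjusted p = 0.000956). It is named after its values were seen. Complement had 0 of 7 called. Interferon-stimulated genes had 2 of 12 lower, Usp18 at -1.42 and Mx1 at -1.50, and 0 without the arrays that stood apart. Of 8 mast cell markers 1 was higher, the tryptase Tpsab1 by 0.85.

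Endothelial markers were called in both directions, with 4 of 9 lower, 1 higher and a median of -0.51. Cldn5, a tight-junction protein of vessel lining, was 2.91, 2.18, 3.16, 2.64 and 2.52 against 3.99, 4.51, 4.56, 4.75 and 4.16. Its groups did not overlap, with a difference of -1.71 (SE 0.26, adjusted p = 0.000348). Emcn, a sialomucin of capillaries and veins, differed by -0.95 and Tie1, a receptor kinase of vessel lining, by -0.76. Vwf, the clotting factor stored in endothelial cells, was higher by 0.83 (adjusted p = 0.0077). Without the arrays that stood apart 5 were lower and 1 higher, with a median of -0.68. The endothelial score was -0.40, -0.32, -0.40, -0.52 and -0.42 with rosiglitazone and -0.32, 0.15, 0.01, 0.15 and 0.21 with resveratrol, where array 1 lay as low as the highest rosiglitazone array.

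Fibroblast and progenitor markers had 4 of 9 lower and 0 higher, all 9 differences were below 0, and the median was -0.93. Without the arrays that stood apart 2 were lower, with a median of -0.60. Col14a1, a collagen of connective tissue fibroblasts, was 5.75, 5.11, 6.09, 5.88 and 5.91 against 8.32, 6.84, 7.57, 6.86 and 7.11, a difference of -1.59 (adjusted p = 0.00408). The groups did not overlap, and resveratrol array 1 was the highest. Cd34, a marker of stromal progenitors and vessel lining, differed by -1.36, Clec3b by -1.23 and Dpt, a matrix protein of fibroblasts, by -0.93. Cd34 and Clec3b did not pass without those arrays (adjusted p = 0.0545 and 0.104). Of 25 extracellular matrix genes, 4 were lower and 1 higher, with a median of -0.11. Besides Lum, Dcn, the proteoglycan decorin, differed by -1.26 and Mmp2, a gelatinase, by -1.18, while Ccn2, a matrix signalling protein induced by TGF-beta, was higher by 1.19 (adjusted p = 0.00874). Without the arrays that stood apart 2 were higher and 2 lower and the median turned to 0.33, with Mmp2 among those that no longer passed (adjusted p = 0.0546). Rosiglitazone array 2 had a matrix score of -1.23, the others of that group had 0.16 to 0.66, and the resveratrol arrays -0.11 to 0.55.

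Cell cycle genes had 5 of 19 lower and 0 higher, with a median of -0.36, and 1 lower without the arrays that stood apart. Leaving out 1 array gave 1 lower for rosiglitazone array 2 or 4 and resveratrol array 2 or 5, 2 for resveratrol array 3, and 3 for rosiglitazone array 3 or 5 and resveratrol array 1. Rrm2, the ribonucleotide reductase subunit of dividing cells, differed by -1.44 (adjusted p = 0.0337), Bub1, of the spindle checkpoint, by -0.76 and Cdk1, the mitotic kinase, by -0.60. Their levels with rosiglitazone, 2.87, 2.22 and 1.58, lay under the median gene level, and Bub1 and Cdk1 did not pass without those arrays (adjusted p = 0.077 and 0.131). Of 18 immediate early genes 2 were higher, Nr4a2 by 0.79 and Jund by 0.61, and Jund's second feature did not pass (0.17, adjusted p = 0.689). With the arrays that stood apart left out 3 were higher: Nr4a2 no longer passed (adjusted p = 0.244), and Fosl1 (0.72, adjusted p = 0.0411) and Myc (0.89, adjusted p = 0.00954), which did not pass over all arrays, did. Fosl1 and Myc are named after their values were seen. Of 13 nuclear receptors and coregulators, Ppara and Ppard were higher and Nrip1, a corepressor of oxidative genes, was lower (-0.69, adjusted p = 0.0403), the last not without those arrays (adjusted p = 0.0898). Endoplasmic reticulum stress genes had 0 of 14 called, with a median of 0.02, and clock genes 0 of 10. Without those arrays 1 clock gene passed, the repressor Bhlhe40 (1.12, adjusted p = 0.0343; 0.89, adjusted p = 0.0612, over all arrays).

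Markers of other tissues were mostly not called. Skeletal muscle had 0 of 12 called and a median of -1.06 that became 0.12 without the arrays that stood apart, and milk proteins 0 of 7 and a median of -1.27 that became 0.04. Smooth muscle and pericyte markers had 0 of 7 called, urothelial 0 of 6, kidney and adrenal 0 of 10, red cell 0 of 4 and neural 0 of 6. Of these, Tagln, of smooth muscle, was higher (1.23, adjusted p = 0.0426) and the glial S100b, which fat cells also make, lower (-0.83, adjusted p = 0.00169) without the arrays that stood apart, with adjusted p = 0.396 and 0.361 over all arrays. Male accessory gland had 1 of 7 higher, Svs1 by 0.45 (adjusted p = 0.0417), at levels of 2.06 to 2.51, and 0 without those arrays.

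Both treated groups can be set beside the obese and lean control arrays, which share the rosiglitazone and resveratrol arrays with the comparison above, so that no relation between the comparisons is tested. Against the obese group, 1436 genes (9.86%) passed for rosiglitazone, 1047 higher (7.19%) and 389 lower (2.67%), and 0 for resveratrol by limma, where 1286 genes had an unadjusted p under 0.05. Without obese array 2, which stood apart, 1104 passed for rosiglitazone, 746 higher and 358 lower, and 0 for resveratrol, with 892 at an unadjusted p under 0.05. Against lean controls, 755 (5.19%) passed for rosiglitazone, 383 higher (2.63%) and 372 lower (2.56%), and 18 (0.124%) for resveratrol, 4 higher (0.0275%) and 14 lower (0.0962%). The count for resveratrol was 39 without obese array 2, which enters the shared spread, and 59 without all 3 arrays that stood apart. For Acads, the mean was 3.02 in obese and 3.39 in lean control tissue, against 3.25 with resveratrol and 5.11 with rosiglitazone, which differed from obese by 2.09 (adjusted p = 3.94e-06) while resveratrol differed by 0.23 (adjusted p = 0.737). For Me1, rosiglitazone differed from obese by 2.91 (adjusted p = 7.64e-06) and resveratrol by 0.70 (adjusted p = 0.534). C1qtnf9 differed from obese by -3.18 (adjusted p = 7.64e-06) with rosiglitazone and by -0.29 (adjusted p = 0.806) with resveratrol.

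For some of the lower genes, obese tissue lay between the treated groups. Adgre1 was 3.62 ± 0.27 with rosiglitazone, 4.17 ± 0.44 in obese, 4.32 ± 0.40 in lean control and 5.03 ± 0.52 with resveratrol tissue (SD, n = 5 each). Its differences from obese were -0.55 (adjusted p = 0.173) and 0.86 (adjusted p = 0.325), and neither passed. That of rosiglitazone was -0.74 (adjusted p = 0.0528) without obese array 2 and -0.69 (adjusted p = 0.0244) without all 3 arrays that stood apart. Lum was 5.16, 6.38, 6.06 and 7.27 in the same order, with a difference from obese of -1.22 (adjusted p = 0.0155) for rosiglitazone and 0.89 (adjusted p = 0.427) for resveratrol. Ccr2 was 5.09, 6.34, 6.21 and 7.29, and neither difference from obese passed (adjusted p = 0.129 and 0.595), though that of rosiglitazone did without obese array 2 (-1.67, adjusted p = 0.033) and not without all 3 (adjusted p = 0.0623). Oxtr was 4.01, 5.68, 7.32 and 6.90, and rosiglitazone differed from lean control tissue by -3.31 (adjusted p = 0.000964) and from obese tissue by -1.67 (adjusted p = 0.0583). The difference from obese tissue was -2.001 (adjusted p = 0.031) without obese array 2. Alb was 9.63, 3.996, 6.96 and 4.57, with lean control arrays spread widely (SD 2.26), and rosiglitazone differed from lean control tissue by 2.67 (adjusted p = 0.0226).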

How the data were processed

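Total RNA of 100 ng per sample was hybridised to rat whole-transcript arrays, per the labels' protocols. The deposited table holds log2 values made with RMA (background correction, quantile normalisation and probe summary), per the submitters' processing notes; no version is given in the sources used here. That the scale is log2 rests on the range of the values and on that method's name. Column names were matched to sample labels, and 0 columns stayed unused.

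The platform table named 15653 of 36685 features, 829 with several symbols, and 21032 are unnamed here. For 234 genes with several features, 1 feature was kept, that of the highest 20-array mean. Of the features, 14670 matched the RefSeq table by gene ID.

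The test was limma's moderated one (version 3.58.1, R 4.3.3; lmFit, then eBayes, two-sided) on the means of all 4 groups, which share 16 residual and 5.41 prior degrees of freedom, with Benjamini-Hochberg adjustment over all 14557 genes. On simulated data for this comparison with 14557 genes, 200 of them changed, it recovered 22.4% of changes of 0.5 (log2), 88.1% of changes of 1 and 95.5% of changes of 2, with 12 false among 149 calls. The simulated noise was independent between genes, with the same spread on every array. It held no arrays that stand apart, so these rates need not hold for the real arrays. Precision is limited by the 5 arrays of each group.

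The comparison, the 49 gene lists (585 of 796 entries measured, 3 through an older symbol) and the tests were chosen with earlier results of these data known. Named genes are the 14 largest called differences in each direction whose groups do not overlap, leaving out uncharacterised, olfactory, vomeronasal and small RNA symbols, up to 4 called members of each list by p, or 2 where none was called, called members that go against their list, and fixed genes. Which of these are printed was decided for length. Among the genes named outside the rule are Cpt1a, Fgf21, Ccl2, Fosl1, Myc and members of the families chosen after their values were seen. The median gene level of 3.02, under which no fold is given, was chosen after the values were seen.

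Alternatives were another quantile normalisation, centring the arrays, leaving out dim genes, other uses of features, a minimum of 1.5-fold, eBayes with a trend or robust, weights per array, a fit of the 2 groups alone, a block for the replicate number, and leaving out each array in turn. Leaving out the arrays that stood apart was added after the data were seen.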

Additional observations from a re-analysis of the deposited data

Results flagged for a closer look

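On single arrays, 41 of the values described above lay far from the other arrays of their group, by Dixon's test for 5 values. The test was run in both groups on 115 named genes and on the scores of the 16 marker lists. It was also run on the scores of fatty acid oxidation, complex I, de novo lipogenesis, class II antigen presentation and extracellular matrix. Chance gives such a value in about 1 of 20 groups. No explanation is weighed for them.

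In the resveratrol group, nearly all were on array 1. Lower there than on the other arrays were Cpt1b at 3.82, Prg4 at 4.24, Elovl6 at 3.33, C1qtnf9 at 3.47, Acadl at 7.18, Pdhb at 5.69, Cidea at 6.47, Pnpla2 at 8.57, Ldhb at 5.64, Adipoq at 9.92, Lep at 5.89, Pck1 at 7.43, S100b at 6.42, Cd36 at 9.72 and Fabp4 at 10.44. The score of de novo lipogenesis was -0.81 and that of adipocyte markers -1.61. Higher there were Ace at 7.14, Sod1 at 7.49, Il33 at 7.55, Adgre1 at 5.95, Ccl2 at 6.695 and Cd34 at 7.91, and the scores of lymphocyte markers at 0.51, skeletal muscle markers at 4.57 and milk protein markers at 5.82. On resveratrol array 5 the macrophage score was 0.94, the highest of its group.

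In the rosiglitazone group, array 2 was higher than the others in Ucp1 at 10.52, Ndufs7 at 8.14, Atp5f1d at 9.43, Suclg1 at 8.76 and Ech1 at 9.39, and in the complex I score at 1.61. It was lower in Cdk1 at 1.23, Tf at 6.20, S100b at 6.94, the extracellular matrix score at -1.23 and the fibroblast and progenitor score at -1.36. Array 5 was the highest in Prg4 at 8.77, array 4 the lowest in Il33 at 4.42, and array 1 had the highest red cell score at 3.39.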

How the results depend on the processing

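The count of 1004 genes lay within 1.5 times of itself under the other settings tried on all arrays or with 1 left out, from 685 to 1337, the latter with array weights (755 higher, 582 lower), and each array left out in turn gave 685 to 965, with 426 to 565 higher and 239 to 400 lower. The lower count moved most, to 239 without rosiglitazone array 4 and 259 without either resveratrol array 3 or 5. Centring the arrays raised the share of higher calls from 59.3% to 68.9%, with 619 higher and 279 lower. Called members of the pathway lists numbered 141, and 113 to 154 under the alternatives. Without resveratrol array 1 and rosiglitazone array 2, 683 genes passed, and 870 when obese array 2 was left out too. For resveratrol against lean controls, 18 genes passed over all arrays, 39 without obese array 2 and 59 without all 3, while the counts of the other comparisons with obese or lean controls stayed within 1.5 times of themselves. Of 98 genes named and called, 72 passed under every alternative, 80 passed without both arrays and 0 turned direction. Leaving aside the families chosen after their values were seen, the signs that turned were those of 3 genes that were not called. Adipoq was -0.13 with array weights, -0.21 to 0.10 with an array left out, and -0.19 without the arrays that stood apart, with or without obese array 2. Pck1 was -0.25, -0.24 to 0.55 and -0.56 in the same settings, and Fabp4 -0.09, -0.14 to 0.087 and -0.18. The cause was not tested. The correlations of same-numbered deviations were -0.008 to 0.13. The resveratrol array most correlated with rosiglitazone arrays 2, 4 and 5 had the same number, and that of arrays 1 and 3 another. Whether replicate numbers pair the samples was not tested. With the replicate number as a block 999 genes passed, 549 higher and 450 lower.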

Other observations

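Some further gene families, mostly of the mitochondrion, were all chosen after their values were seen, so their counts are no separate evidence. They are read beside the 4.09% of all genes called higher and 2.81% called lower. Of 62 mitochondrial ribosomal protein genes, 22 were higher with rosiglitazone and 0 lower, with a median of 0.53, and 13 without resveratrol array 1 and rosiglitazone array 2. Mrpl38, of the large subunit, differed by 1.35 (adjusted p = 0.000154). Of 10 genes of coenzyme Q synthesis, which make the electron carrier between the complexes, 6 were higher, with Coq8a at 2.02 (adjusted p = 0.0049) and overlapping groups, and 4 without those arrays. A set of genes of iron-sulphur proteins and of iron-sulphur cluster assembly had 8 of 12 higher, with the scaffold Iscu at 1.36, and 4 without those arrays. Import across the mitochondrial membranes had 4 of 20 higher, with Timm44 at 1.18, and 3 without those arrays. Of 36 Slc25 carriers 8 were higher, with the carnitine carrier Slc25a20 at 1.804, and 2 lower, Slc25a43 at -0.96 and the ornithine carrier Slc25a2 at -0.84, against 6 higher and 2 lower without those arrays.

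Vessel and matrix genes, likewise picked from the called genes after their values were seen, went in both directions. Of 12 capillary endothelial genes 10 were lower, with and without those arrays, a share that follows from how the genes were picked. The others, Aqp1 (-0.45, adjusted p = 0.322) and Gpihbp1 (0.01, adjusted p = 0.991), did not pass. Besides Ace and Cldn5, Car4, a carbonic anhydrase of capillary walls, differed by -1.51 (adjusted p = 0.0146), Calcrl, a receptor of adrenomedullin, by -0.99 and Nrp1, a coreceptor of VEGF, by -0.94. Of 7 lymphatic endothelial genes 3 were higher, Mmrn1, Ccl21 and the receptor Flt4 (0.67, adjusted p = 0.0428), and 2 without those arrays, where Flt4 did not pass (adjusted p = 0.192). Prox1, the factor that defines lymphatic identity, differed by -0.05 (adjusted p = 0.969) and Lyve1 by -0.48 (adjusted p = 0.444). Prox1 was 3.75 on resveratrol array 1 and 1.11 to 1.76 on the others of that group. Without those arrays the sign of Prox1 turned, to 0.47 (adjusted p = 0.216), and Lyve1 differed by -0.25 (adjusted p = 0.78). Of 20 matricellular proteins 6 were higher and 3 lower, with a median of 0.45, and 9 were higher and 1 lower without those arrays, with a median of 0.64. Thbs4, a thrombospondin of tendon and muscle, was 7.78, 3.83, 6.78, 6.18 and 7.04 with rosiglitazone and 3.13, 2.92, 3.93, 3.22 and 3.73 with resveratrol. Rosiglitazone array 2 alone overlapped the resveratrol arrays, and the difference was 2.93 (adjusted p = 0.00046). Cilp, a cartilage matrix protein, differed by 1.88 and Ccn5 by 1.74, while Sparcl1, a matrix protein of vessels, differed by -1.32 (adjusted p = 0.000154).

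Of 26 microRNA genes among those tested, 1 was called, no larger a share than the 6.9% of all genes, and their median difference was -0.01. Mir223, the host feature of a microRNA of myeloid cells, was 3.56, 1.27, 3.42, 2.13 and 3.96 with rosiglitazone and 4.41, 4.64, 4.69, 4.76 and 4.84 with resveratrol. The groups did not overlap, with a difference of -1.80 (adjusted p = 0.0122), and -1.46 (adjusted p = 0.036) without those arrays. The array does not separate the mature arms from their precursor. Both arms are shown, from RefSeq (GRCr8, chromosome X, plus strand), because this is the microRNA gene that was called, with the seed (bases 2 to 8) in capitals.
rno-miR-223-5p: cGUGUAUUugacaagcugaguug
rno-miR-223-3p: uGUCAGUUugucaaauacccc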
